A study of Mus musculus with 3 samples.

Results

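The AP-1 and EGR immediate early genes of the mouse were examined in bone marrow cells of a leukemia model driven by TBLR1-RARa (TR), a fusion of TBLR1 with the retinoic acid receptor alpha. The 10 members were chosen by symbol, as Fos, Fosb, Fosl2, Jun, Junb, Jund, Egr1, Egr2, Ier2 and Atf3, and were found by NCBI Gene ID among 16742 genes listed in any library. RNA-seq gave 3 libraries, 1 per condition, each from 3 pooled mice on a C57BL/6 background, labelled as 6 to 8 weeks old. Control was made from lin- bone marrow cells of wild-type mice, which are the cells left after those with mature lineage markers are removed. The TR1 and TR9 libraries came from GFP+ bone marrow cells of TBLR1-RARa mice of the third transplant generation, whose leukemias descend from 2 different primary mice. The TR cells carry TR and GFP on 1 retroviral transcript, so that GFP marks the cells that express the fusion, and no vector-only library was analysed here. Control and TR cells were therefore isolated in different ways, and the effects of isolation, retroviral transduction, transplantation and leukemia cannot be told apart in these data.

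Immediate early genes are switched on within minutes of a growth factor, cytokine or stress signal, without new protein synthesis, because their promoters are already bound by factors such as SRF and CREB that kinase cascades activate. FOS proteins bind DNA as dimers with JUN proteins, and this dimer is AP-1, whereas EGR proteins are zinc finger factors that bind GC-rich sites. In blood formation these factors are known for roles in monocyte and granulocyte development, and their mRNAs are also known to respond to the handling of living cells.

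Expected counts, which are the read counts that RSEM estimates per gene, summed to between 5129662 and 5571409 per library. A gene was called higher or lower between 2 libraries where its FPKM differed by 2-fold or more and its false discovery rate did not exceed 0.001, where FPKM is a fragment count divided by transcript length and by the library's total. Such calls compare the reads of 2 libraries and not the conditions, since no replicate gives the spread between mice, and all intervals are 95% exact intervals that cover counting error only. In bulk RNA, fewer cells of a type and less RNA per cell cannot be told apart. The expected count of Rara, the mouse gene of the retinoic acid receptor alpha, was 58.9 in Control against 1170 in TR1 and 359 in TR9. That of Tbl1xr1, the mouse gene of TBLR1, was 854, 1190 and 981. Per the paper, the fusion was first found in patients with acute promyelocytic leukemia. Whether reads of the fusion's cDNA were counted under these mouse genes was not tested.

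The members together reached 68.8 FPKM in Control, against 254 in TR1 and 368 in TR9. In TR1, 6 of the 10 members were called higher than in Control (Fos, Fosb, Jun, Junb, Egr1 and Ier2) and 0 were called lower, beside 8.09% of all 16282 genes tested called higher and 13.0% called lower. In TR9, these 6 and also Jund and Egr2 were called higher than in Control and 0 members were called lower, beside 9.37% and 10.8% of 16303 genes. Fosl2 and Atf3 were called in neither comparison. Both comparisons share the Control library, so a high or low value in it enters both. The median log2 ratio of the members was 1.90 in TR1 and 2.27 in TR9, and 1.61 and 1.97 with Egr2, at 0 in Control, placed at its lower bound. Over all genes tested, the median was -0.29 in TR1 and -0.12 in TR9. The balance of calls over all genes depended on scaling. In TR1, 1318 genes were higher and 2120 lower as deposited, 1694 and 1591 after TMM scaling and 1062 and 2918 after TPM scaling. In TR9, 1527 were higher and 1766 lower as deposited, 1717 and 1503 after TMM scaling and 1370 and 2064 after TPM scaling. The 6 members called higher in both were called under each of these scalings.

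**Figure D1:**
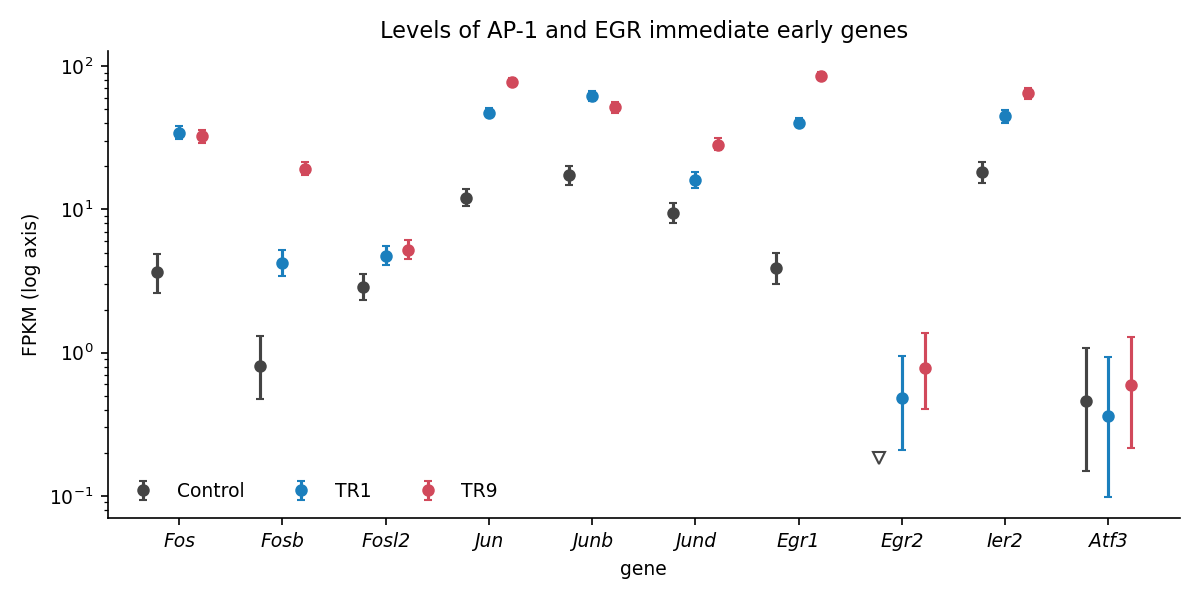
Level of each member in the 3 libraries, as FPKM on a log axis, with 1 point per library and 95% exact Poisson intervals as bars. The open triangle marks 0.184 FPKM, the level of 3 counts, at which the 0 counts of Egr2 in Control are drawn. It is a set floor and not a 95% exact limit. Fos, Fosb, Jun, Junb, Egr1 and Ier2 sit above Control in both TR libraries with intervals apart, while the 3 points of Atf3 lie within each other's intervals.

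Among the FOS genes, whose products need a JUN partner to bind DNA, the 150 bases before the start differed in the factor sites they spell out. The 150 bases before the annotated start of Fos are printed first because Fos rose in both TR libraries and its promoter is the classic model of the immediate early response. The same 150 bases of Fosb and Fosl2 lie in an annotated first exon of another transcript. For them, a stretch of 30 bases is shown around a match to the EGR site. All are RefSeq-derived sequences of GRCm38.p6, written 5′ to 3′ on the strand of the gene, at chr12:85473740-85473889 (plus strand) for Fos, chr7:19310082-19310111 (minus strand) for Fosb and chr5:32136382-32136411 (plus strand) for Fosl2. Capitals mark TGACG, the core of the CREB site, the EGR site GCGGGGGCG and the TATA box TATAAA.
Fos: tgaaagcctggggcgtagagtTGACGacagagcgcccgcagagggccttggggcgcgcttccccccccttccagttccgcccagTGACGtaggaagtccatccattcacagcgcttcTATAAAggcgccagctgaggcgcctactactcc
Fosb: tgcgggTGACGcaagcGCGGGGGCGggtcc
Fosl2: tccggctgcgcGCGGGGGCGgaagggcgcg
The Fos window holds TGACG at 129 to 125 and at 66 to 62 bases before the start, and TATAAA at 33 to 28. In Fosb, TGACG lies 60 to 56 bases before the start and GCGGGGGCG 50 to 42, and in Fosl2 the EGR site lies 79 to 71 bases before it. Over 32851 RefSeq promoter windows of 150 bases, searched on both strands, TGACG was found in 13.3%, GCGGGGGCG in 2.09% and TATAAA in 7.57%. Bases further upstream were not searched. A match is a description of the letters and not of binding, which was not measured in these libraries.

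Fos, the founding member of the family (Gene ID 14281), had an expected count of 42 in Control against 405 in TR1 and 351 in TR9. Its FPKM was 3.63 in Control (95% interval 2.62 to 4.91), 34.4 in TR1 (31.2 to 38.0) and 32.5 in TR9 (29.2 to 36.1). Both TR libraries were thus high and close to each other, with Control far below. The log2 ratio against Control was 3.25 (2.79 to 3.74) in TR1 and 3.16 (2.70 to 3.66) in TR9, which is 9.49-fold and 8.94-fold. Between TR9 and TR1 the log2 ratio was -0.09, with an interval of -0.30 to 0.12 that includes 0.

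Fosb (Gene ID 14282), whose product can take the place of FOS in the dimer, had 17 counts in Control against 90 in TR1 and 373 in TR9. Its FPKM was 0.810 (0.477 to 1.31), 4.23 (3.43 to 5.25) and 19.1 (17.3 to 21.3) in the same order, so that the 3 libraries formed 3 separate steps. TR1 was above Control by a log2 ratio of 2.38 (1.62 to 3.22), and TR9 by 4.56 (3.85 to 5.35), a ratio of 23.5-fold. TR9 was also called higher than TR1, by 4.51-fold, and among the members this was the largest difference between the TR libraries.

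Fosl2 (Gene ID 14284), a FOS relative without the strong activation domain of FOS, had 94, 157 and 159 counts in Control, TR1 and TR9. Its FPKM was 2.88 (2.35 to 3.56), 4.73 (4.07 to 5.60) and 5.21 (4.48 to 6.15), so both TR libraries were slightly above Control and overlapped each other. The log2 ratios against Control of 0.72 (0.34 to 1.10) and 0.86 (0.48 to 1.24) were under the 2-fold threshold. Fosl1, the remaining FOS gene and no member, had 6, 7 and 13 counts.

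The make-up of the FOS family therefore differed between the libraries when compared per length. Of the FPKM of Fos, Fosb, Fosl1 and Fosl2 together, Fos held 45.6% in Control against 78.0% in TR1 and 55.7% in TR9. Fosb held 10.2%, 9.58% and 32.7%, and Fosl2 held 36.2%, 10.7% and 8.95%. The family total rose from 7.96 FPKM in Control to 44.1 in TR1 and 58.2 in TR9, so the smaller share of Fosl2 went with higher levels of Fos and Fosb and not with a lower level of its own. By counts, which favour its longer transcript, Fosl2 was the largest share in Control (59.1%, with Fos at 26.4%) and Fosb in TR9 (41.6%, with Fos at 39.2%).

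**Figure D2:**
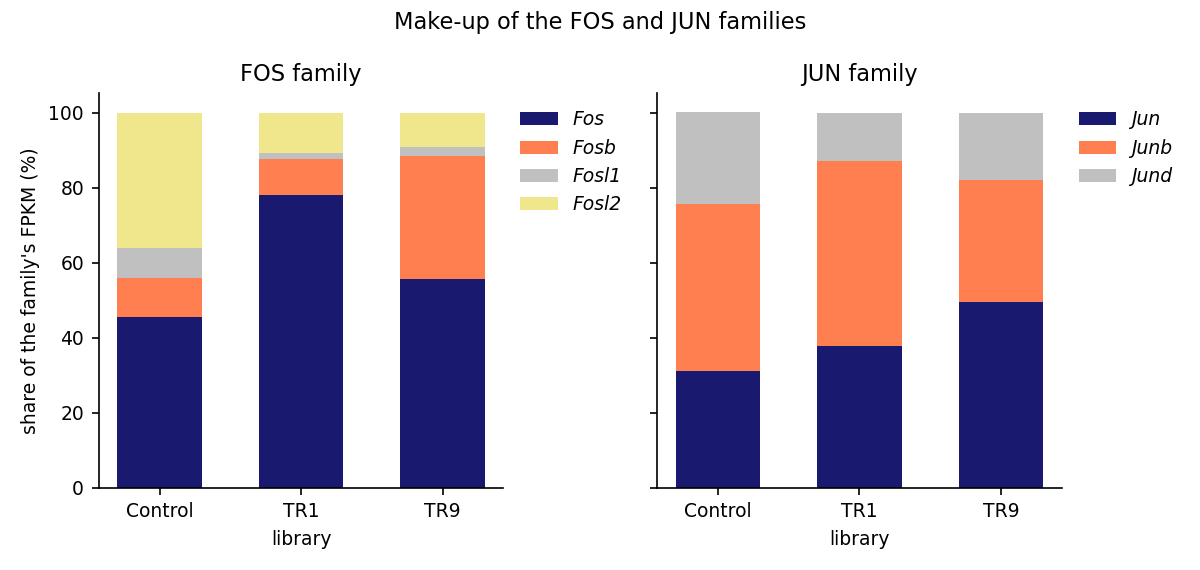
Share of each gene in the summed FPKM of the FOS genes (left) and of the JUN genes (right), in percent, as stacked bars for Control, TR1 and TR9. Per length, Fos is the largest FOS share in each library, at 45.6%, 78.0% and 55.7%, and the largest JUN share is Junb in Control (44.6%) and TR1 (49.4%) and Jun in TR9 (49.4%).

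JUN proteins form dimers with FOS proteins or with each other, and Jun and Junb, called higher in both TR libraries, have different promoters. Their 150 bases before the annotated start in GRCm38.p6 (RefSeq) lie at chr4:95052223-95052372 for Jun and chr8:84978749-84978898 for Junb, both on the minus strand. Capitals mark TGACATCA, a form of the AP-1 site through which Jun is known to regulate itself, and TGACG.
Jun: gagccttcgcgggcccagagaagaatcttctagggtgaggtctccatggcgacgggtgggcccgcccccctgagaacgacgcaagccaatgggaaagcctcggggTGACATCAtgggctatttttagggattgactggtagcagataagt
Junb: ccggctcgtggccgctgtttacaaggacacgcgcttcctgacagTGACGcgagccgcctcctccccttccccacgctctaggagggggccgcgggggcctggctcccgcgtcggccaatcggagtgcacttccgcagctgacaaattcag
TGACATCA lies 45 to 38 bases before the start of Jun, and 2.32% of all windows hold it on either strand. In Junb, TGACG lies 106 to 102 bases before the start. The window of Jund held none of the motifs searched, and TGACTCA, the consensus AP-1 site found in 2.84% of all windows, was in none of the 8 member windows.

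Jun (Gene ID 16476), the strongest activator among the JUN proteins, had 212 counts in the Control library, 846 in TR1 and 1289 in TR9. Its FPKM rose from 12.1 (10.5 to 13.9) to 47.3 (44.5 to 51.0) and 78.3 (74.6 to 83.3), with the 3 intervals apart. Against Control the log2 ratio was 1.97 (1.76 to 2.20) in TR1 and 2.70 (2.49 to 2.92) in TR9. TR9 lay above TR1 by 0.73 (0.60 to 0.85) on the log2 scale, which is under the 2-fold threshold.

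Junb (Gene ID 16477), a JUN protein that can restrain the activity of JUN and is known for a role in limiting myeloid growth, had 174, 633 and 488 counts in Control, TR1 and TR9. The FPKM was 17.3 (14.8 to 20.0), 61.8 (57.0 to 66.8) and 51.8 (47.2 to 56.5), and here TR1 was the highest library. The log2 ratios were 1.84 (1.60 to 2.09) and 1.58 (1.33 to 1.84) against Control, and -0.25 (-0.43 to -0.08) for TR9 against TR1. In GENCODE M21, Prdx2 overlaps the end of Junb on the opposite strand, and since it is not stated whether counting used the strand, reads in the overlap cannot be told apart. Prdx2, an antioxidant enzyme gene, had 1629 counts in Control against 241 in TR1 and 204 in TR9, the opposite direction from Junb.

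Jund (Gene ID 16478), known as the more constant JUN gene, had 150 counts in the Control library, 258 in TR1 and 422 in TR9. Its FPKM was 9.46 (8.04 to 11.1), 16.0 (14.2 to 18.2) and 28.4 (25.9 to 31.4), in 3 separate steps. The log2 ratio of TR9 against Control was 1.59 (1.32 to 1.87) and passed the call, whereas that of TR1 was 0.76 (0.46 to 1.06) and did not. TR9 against TR1 gave 0.83 (0.60 to 1.06), also not called. Under TMM scaling the TR1 ratio was 1.01 and was called, so Jund in TR1 lies at the threshold. The TR9 call was lost in edgeR's exact test with an assumed variation of 0.2. GENCODE M21 places antisense genes over Jun and Jund (Junos and Gm11175), and neither was listed in the libraries. It is not known whether the authors' annotation held them, so this does not show that their reads are absent.

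Within the JUN genes, Jun held 31.1% of the family FPKM in Control against 37.8% in TR1 and 49.4% in TR9, and Junb held 44.6%, 49.4% and 32.7%. The family total was 38.8 FPKM in Control against 125 in TR1 and 159 in TR9. Junb was thus the largest share in Control and TR1 and Jun in TR9. By counts, which favour its longer transcript, Jun was the largest in each library (39.6%, 48.7% and 58.6%).

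Egr1 and Egr2 encode zinc finger factors of the same family, and the promoter of Egr2 holds a match to the SRF site. The 150 bases before its start, at chr10:67537719-67537868 on the plus strand of GRCm38.p6 (RefSeq), are shown because Egr2 was the member listed at 0 in Control. This start is 1 of 5 in the table and is that of the transcript in the deposited files. Capitals mark TGACG on either strand and the CArG box, the site of SRF.
Egr2: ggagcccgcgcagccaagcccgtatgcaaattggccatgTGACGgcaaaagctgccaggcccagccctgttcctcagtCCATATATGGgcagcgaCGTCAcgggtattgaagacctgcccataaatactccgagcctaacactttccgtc
The CArG box, which 0.916% of all windows hold, lies 72 to 63 bases before the start, and TGACG lies 111 to 107 bases before it and, on the opposite strand, 55 to 51. No promoter is printed for Egr1 or Ier2.

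Egr1 (Gene ID 13653), a factor known to favour the macrophage fate in myeloid progenitors, had 66 counts in Control against 693 in TR1 and 1364 in TR9. Its FPKM was 3.90 (3.03 to 4.98) in Control, 40.2 (37.5 to 43.6) in TR1 and 86.0 (82.0 to 91.3) in TR9. The libraries stood in 3 separate steps, and Egr1 had the highest FPKM of all members in TR9, although its interval there overlapped that of Jun. TR1 exceeded Control by 10.3-fold and TR9 by 22.1-fold, with log2 ratios of 3.37 (3.01 to 3.76) and 4.46 (4.11 to 4.85). TR9 was called higher than TR1, with a log2 ratio of 1.10 (0.96 to 1.23), and this call was lost under TMM and median of ratios scaling, where the ratio was 0.95.

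Egr2 (Gene ID 13654), known for roles in nerve myelination and in lymphocytes and macrophages, had 0 counts in the Control library, 8 in TR1 and 12 in TR9. The 0 was set to a floor of 3 counts, or 0.184 FPKM, and the FPKM was 0.480 (0.209 to 0.952) in TR1 and 0.780 (0.407 to 1.37) in TR9. Egr2 was thus low in each library, and with Control set to the floor of 3 counts it was at least 2.63-fold higher in TR1, not called, and at least 4.28-fold higher in TR9, called. These folds leave out the counting error of the TR libraries, and the 95% interval of the log2 ratio began at 0.75 in TR1 and 1.57 in TR9. TR9 and TR1 differed by a log2 ratio of 0.70, with an interval of -0.71 to 2.20 that includes 0.

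Ier2 (Gene ID 15936), which encodes a small nuclear protein of the immediate early response, had 154 counts in Control against 384 in TR1 and 514 in TR9. Its FPKM was 18.3 (15.4 to 21.3), 44.9 (40.4 to 49.4) and 65.4 (59.5 to 70.9). In Control it was the member with the highest FPKM, with an interval that overlapped that of Junb, and the 3 libraries were again apart. Against Control the log2 ratio was 1.29 (1.02 to 1.58) in TR1 and 1.83 (1.57 to 2.11) in TR9. TR9 lay 0.54 (0.35 to 0.73) above TR1 on the log2 scale, under the 2-fold threshold.

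Atf3, a stress-induced leucine zipper factor of the ATF family that can pair with JUN, was low in each library and not called. Its 150 bases at chr1:191183334-191183483, minus strand of GRCm38.p6 (RefSeq), are shown to set this promoter beside those of Fos and Jun, with TGACG on the opposite strand in capitals, 7 to 3 bases before the start.
Atf3: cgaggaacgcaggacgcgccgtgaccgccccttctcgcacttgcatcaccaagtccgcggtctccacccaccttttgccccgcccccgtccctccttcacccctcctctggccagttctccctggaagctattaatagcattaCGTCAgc
Atf3 (Gene ID 11910) had 5 counts in the Control library, 4 in TR1 and 6 in TR9, or 0.460 (0.149 to 1.07), 0.360 (0.0987 to 0.928) and 0.590 (0.217 to 1.29) FPKM. The log2 ratios were -0.35 (-2.68 to 1.87) in TR1 and 0.36 (-1.61 to 2.41) in TR9. At this depth neither a 2-fold rise nor a 2-fold fall of Atf3 was detectable, since both lie inside the intervals.

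**Figure D3:**
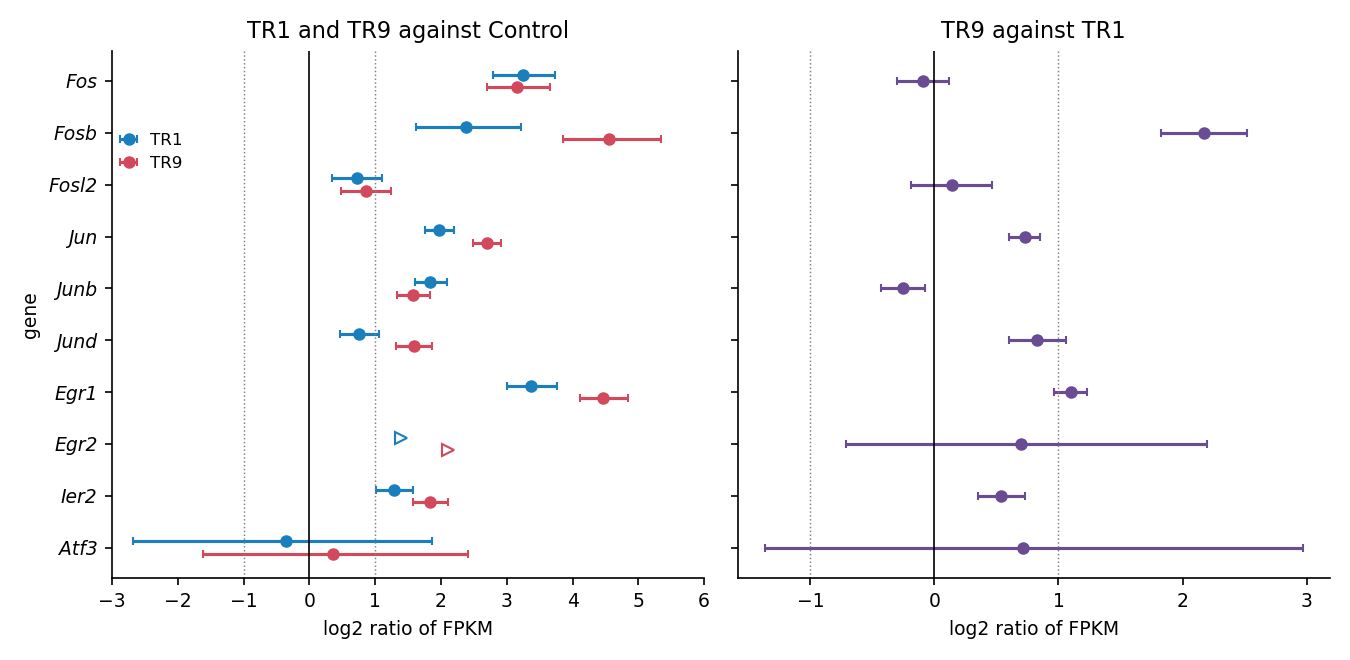
Log2 ratio of FPKM of each member against Control (left, TR1 and TR9) and of TR9 against TR1 (right), with 95% exact intervals as bars and dotted lines at 2-fold. Open triangles mark the lower bounds of Egr2 against Control. Apart from Egr2, which has only a lower bound, Fosb and Egr1 stand highest for TR9 against Control (4.56 and 4.46). Fosb and Egr1 are also the members called in TR9 against TR1 (2.17 and 1.10). Fos (-0.09, but 0.03 under TPM scaling) and Junb (-0.25) lie just below 0 in TR9 against TR1.

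The order of the members by FPKM differed between the libraries. In Control, Ier2 and Junb came first with overlapping intervals, then Jun and Jund, then Egr1, Fos and Fosl2, and Fosb, Atf3 and Egr2 last. TR1 had Junb first, followed by Jun, Ier2, Egr1 and Fos, whose neighbours in the order were not apart, then Jund, then Fosl2 and Fosb, and Egr2 and Atf3 last. TR9 had Egr1 and Jun first with overlapping intervals, then Ier2, then Junb, then Fos and Jund with overlapping intervals, then Fosb, then Fosl2, and Egr2 and Atf3 last. Among all listed genes, Egr1 stood at percentile 39.7 in Control against 87.2 in TR1 and 94.8 in TR9, and Fos at 38.8, 84.8 and 83.2. Jun reached percentile 94.0 in TR9 from 59.7 in Control, whereas Atf3 stayed between 17.6 and 20.0.

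Between the leukemias, 2 of the 10 members, Fosb and Egr1, were called higher in TR9 than in TR1 and 0 were called lower, beside 4.34% of 15706 genes called higher and 2.31% called lower. The median log2 ratio of the members was 0.71, against 0.13 over all genes, and 8 of the 10 members lay above 0, beside 60.2% of all genes. The exceptions were Fos and Junb, and Fos moved to 0.03 under TPM scaling while Fosl2 moved to -0.01 under median of ratios scaling. After TMM scaling, 542 of all genes were called higher and 453 lower, in place of 681 and 363.

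The related genes were read from lists chosen by known function, with earlier results of these data known. Of 46 other immediate early genes, 22 were called higher and 4 lower in TR1, and 24 higher and 3 lower in TR9, with 20 higher and 3 lower in both and 16 called in neither. Over all genes, 8.09% were called higher in TR1 and 9.37% in TR9, and 5.67% were higher and 8.39% lower in both. Their median log2 ratio was 1.06 in each comparison, or 1.12 in TR1 and 1.07 in TR9 with genes of 3 counts or fewer in 1 library at their bound. Trib1, an adaptor for protein degradation and a known leukemia gene in mice, had 5 counts in Control against 147 in TR1 and 333 in TR9, with log2 ratios of 4.88 (3.60 to 6.50) and 6.18 (4.92 to 7.79). Socs3, an inhibitor of cytokine signaling, had 7, 76 and 97 counts, with log2 ratios of 3.43 and 3.90. Dusp1, a phosphatase that switches off MAP kinases, had 36.9, 281 and 243 counts, with log2 ratios of 2.90 and 2.82. Gadd45b, a stress response gene, had 60, 655 and 474 counts, with ratios of 3.42 and 3.08 on the log2 scale. These genes rose with the members, whereas Zfp36l1, whose product promotes the decay of mRNAs, fell from 317 counts in Control to 20 in each TR library, with log2 ratios of -4.02 and -3.89.

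Of 12 other AP-1 dimer genes, 11 were listed. In TR1, 2 were called higher and 1 lower, beside 8.09% and 13.0% of all genes. In TR9, 4 were called higher and 1 lower, beside 9.37% and 10.8% of all genes. Called higher in both TR libraries were 2, beside 5.67% of all genes. These were Batf, a leucine zipper partner of JUN, with 20, 54 and 51 counts in Control, TR1 and TR9, and Jdp2, a repressor of AP-1, with 60, 168 and 140 counts. In TR9, Atf2 and Atf7 were also called higher. Of the EGR family and its NAB corepressors, Egr3 had 1 count in each library, and Nab2, which restrains EGR1, had 30, 64.8 and 64.6 counts and was called higher in TR9 alone, with log2 ratios of 1.18 and 1.23.

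Upstream of the members, 0 of 12 SRF, ternary complex and CREB factor genes were called against Control in either TR library, with log2 ratios from -0.66 to 0.74 in TR1 and from -0.90 to 0.92 in TR9. Of 25 MAP kinase cascade genes, 0 were called higher and 1 lower in TR1, and 2 higher and 2 lower in TR9. Of all genes, 8.09% were called higher and 13.0% lower in TR1, and 9.37% and 10.8% in TR9. Mapk9, a kinase of JUN, was lower in both, with 839, 227 and 296 counts and log2 ratios of -1.91 (-2.13 to -1.69) and -1.41 (-1.60 to -1.21). These values are mRNA levels and say nothing of kinase activity.

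Known targets of AP-1 and EGR factors had calls in each direction. Of 18 such genes, 17 could be compared with Control in each TR library. In TR1, 4 were called higher and 4 lower, beside 8.09% and 13.0% of all genes. In TR9, 4 were called higher and 3 lower, beside 9.37% and 10.8% of all genes. Vegfa, the vascular growth factor gene, had 96.6 counts in the Control library, 604 in TR1 and 623 in TR9, with log2 ratios of 2.60 and 2.79. Tnf, a cytokine gene, had 12, 68 and 62 counts, with log2 ratios of 2.47 and 2.46, and Spp1, the gene of osteopontin, had 155, 534 and 458 counts. Lower in both were Ccnd1, the cyclin D1 gene, with 119, 23 and 18 counts, and Hmox1, the heme oxygenase gene, with 253, 73 and 51 counts. Ccnd1 had log2 ratios of -2.39 and -2.62, and Hmox1 of -1.82 and -2.22.

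Heat shock and chaperone genes, another group that responds to stress, had calls in each direction. Of 14, 2 were called higher and 3 lower in each of TR1 and TR9, beside 8.09% and 13.0% of all genes in TR1 and 9.37% and 10.8% in TR9, and their summed FPKM was 4580 in Control against 3200 in TR1 and 2890 in TR9. The largest parts of this sum in Control were Hspa8 and Hsp90ab1, at 1740 and 1440 FPKM, and neither was called in TR1 or TR9. The sum therefore says little of the other genes in the list. Hspa1a, an inducible HSP70 gene whose expected counts were not whole, had 32.4, 74.5 and 70.9 counts and was called higher in both. Its near-identical copy Hspa1b, with which it can share reads, had 60.5, 154 and 52.9 counts and was called higher in TR1 but not in TR9 (log2 ratio -0.10), so the values of this gene pair are uncertain. Hsph1 and Hspd1 were lower in both, with 1207, 396 and 326 counts and with 4732, 2203 and 1674 counts.

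**Figure D4:**
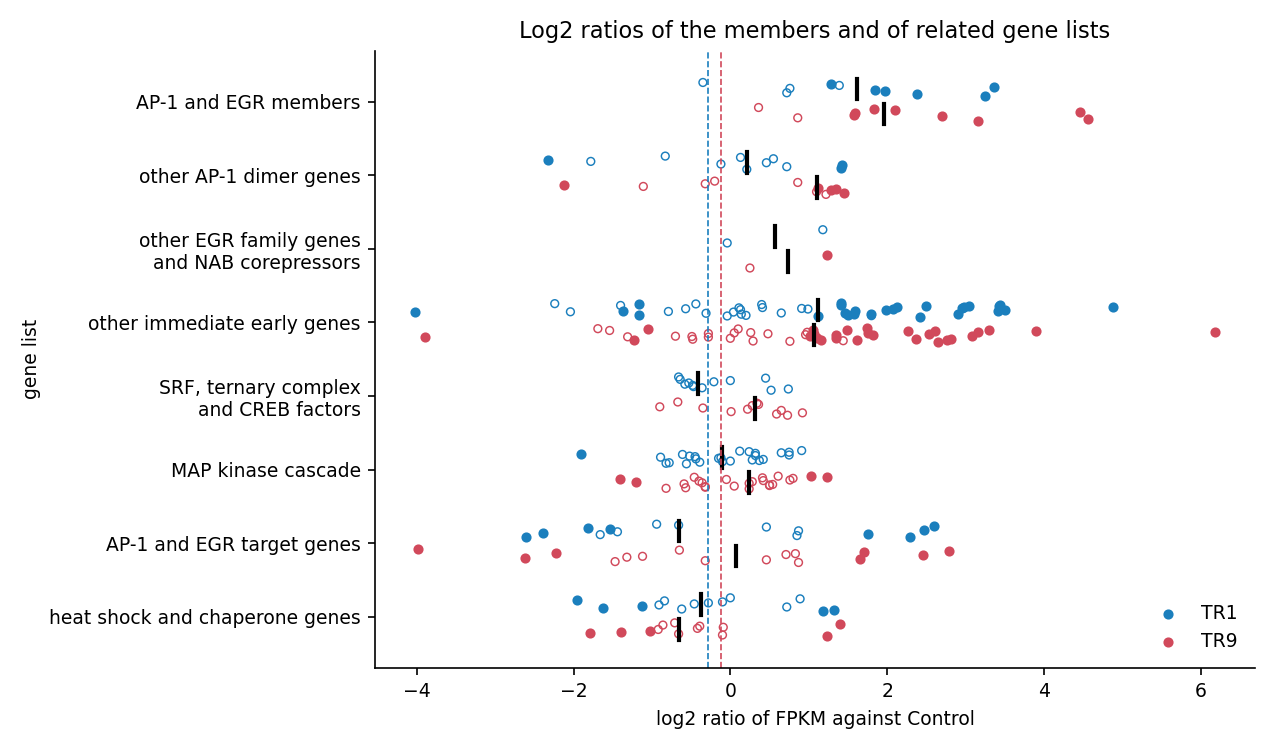
Log2 ratio of FPKM against Control for each gene of the members and of 7 related lists, for TR1 and TR9, with filled points for called genes, open points for genes not called, a black bar at each list's median and dashed lines at the median over all genes. Genes with 3 counts or fewer in 1 library are drawn at their bound and those with 3 or fewer in both are left out. The bars of the members stand at 1.61 and 1.97 and those of the other immediate early genes at 1.12 and 1.07.

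The mRNA levels of cell type markers differed between the libraries along with the members. Late neutrophil markers summed to 90.6 FPKM in Control against 22100 in TR1 and 8690 in TR9, and promyelocyte markers to 4250, 21300 and 23700. All 7 late neutrophil and all 5 promyelocyte markers were called higher in TR1. In TR9, 6 and 4 of them were called higher, and the lowest log2 ratios were -0.45 and 0.64. The shares over all genes were 8.09% called higher in TR1, 9.37% called higher in TR9 and 8.39% called lower in both. All 8 erythroid markers (1990, 4.53 and 8.84 FPKM), all 7 megakaryocyte markers (944, 3.19 and 1.97), all 4 mast cell and basophil markers (418, 73.3 and 84.2) and all 5 stroma markers (515, 3.71 and 8.14) were called lower in both TR libraries. Stem and progenitor markers summed to 195, 101 and 163 FPKM, monocyte markers to 131, 47.6 and 69.2, T and NK markers to 4.99, 2.59 and 3.43, and B lineage markers to 12.7, 16.7 and 200. The B lineage sum in TR9 was nearly all Igll1 (195 FPKM, 0.430 in Control), a pre-B cell receptor gene, while Cd79b was at 10.3 FPKM in Control and at 0 in both TR libraries. Against the direction of their sums, Cd14 and Adgre1 among the monocyte markers were called higher in TR1 (log2 ratios of 3.36 and 2.22). Among the stem and progenitor markers, Ly6a was called higher in both (9.49 FPKM in Control, 26.9 and 87.6 in TR1 and TR9), and Flt3 was called higher in TR1 (1.25) and lower in TR9 (-1.28). At 0 in TR1 were 3 erythroid, 4 megakaryocyte, 5 of 7 listed B lineage and 3 T and NK markers, and in TR9 3, 3, 4 and 3, and each TR library also had 1 stem and progenitor and 1 stroma marker at 0 and TR1 1 mast cell and basophil marker. The part of these differences in the levels of the members was not tested.

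By likeness to the median of the members, the 5 nearest genes, among those that reached 10 FPKM in any library, were Rgs2, Ccdc125, Sema4a, Adgrg3 and Il12a. The measure was the distance between their log2 ratios in TR1 and TR9 and the medians of 1.90 and 2.27, over 3 libraries and 7763 genes. The distances ran from 0.068 to 0.131. With Egr2 at its lower bound the medians were 1.61 and 1.97, and which genes lie nearest to those was not tested. Rgs2, an inhibitor of G protein signaling, was nearest, with 146 counts in Control against 573 in TR1 and 634 in TR9 and log2 ratios of 1.95 and 2.21. The other 4 had log2 ratios from 1.78 to 1.84 in TR1 and from 2.24 to 2.38 in TR9.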

How the data were processed

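RNA-seq of 3 libraries was analysed, with 1 library each for Control, TR1 and TR9, grouped by the sample titles. Per the paper's methods, the authors filtered the reads, mapped them and quantified genes with RSEM, and the submitters' processing notes name BWA, Bowtie, RSEM and the mm9 build. The deposited files give the expected count per gene, estimated by RSEM without normalization, and the FPKM that the authors' pipeline scaled for transcript length and library total. Strand use in counting is not given in the sources used here. Genes missing from a library's file were set to 0. Of 16742 Gene IDs, 16698 were matched to the RefSeq table of GRCm38.p6, used for names only. All 10 members had whole counts and 1 transcript.

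Expected counts were rounded and compared between library pairs with scipy 1.17.1, as an exact Poisson comparison given the library totals, and p-values were adjusted by Benjamini-Hochberg over every gene that either library lists. The thresholds were those of the paper's methods, a false discovery rate not above 0.001 together with a 2-fold ratio, with FPKM under 0.01 set to 0.01. Intervals are 95% exact (Clopper-Pearson for ratios, Poisson for FPKM). Folds against 3 counts or fewer were computed against 3 counts in that library. Between 19.9% and 21.2% of listed genes had a count that was not whole.

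Members and gene lists were chosen with earlier results of these data known. Named genes were the 10 members, up to 5 genes of each related list with at least 50 counts in a library and a call in the same direction in TR1 and TR9, members called between TR9 and TR1, and the 5 nearest genes. Of these, 1 gene is not reported here. Others named, such as Fosl1, Atf2, Atf7, Egr3, Nab2, Prdx2, Hspa1b, Hspa8, Hsp90ab1, Igll1, Cd79b, Cd14, Adgre1, Ly6a, Flt3, Nfkbia, Sgk1, Per1 and Klf2, were chosen after their values were seen. Promoters were found for 8 of 10 members. Alternatives were TMM (edgeR 4.0.16), median of ratios (DESeq2 1.42.0), upper quartile and TPM scaling, ratios of CPM, a pseudocount of 1 FPKM, a floor of 0.001 FPKM, a minimum of 10 counts, a false discovery rate of 0.05 and the exact test of edgeR at a biological coefficient of variation set to 0.2. The exact Poisson comparison and its ratio intervals were tried on simulated Poisson counts for TR1 and Control. Those counts hold no variation between mice, so the trial cannot show how the calls behave under it. The other steps were not simulated. Software was R 4.3.3 and Python 3.11.15, with pandas 2.3.3, numpy 2.4.6 and, for plots, matplotlib 3.10.9.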

Additional observations from a re-analysis of the deposited data

Results flagged for a closer look

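The leukemia libraries differed from each other in 2 members, by the direct comparison of their reads. Fosb was higher in TR9 than in TR1 by a log2 ratio of 2.17 (1.83 to 2.52), with 373 against 90 counts. Egr1 was higher in TR9 than in TR1 by a log2 ratio of 1.10 (0.96 to 1.23), with 1364 against 693 counts. Each leukemia is 1 library, so these differences have no replicate check.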

How the results depend on the processing

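No called ratio of a member changed direction under any alternative, and of the ratios not called, Fos in TR9 against TR1 was 0.03 under TPM scaling and Fosl2 in TR9 against TR1 was -0.01 under median of ratios scaling. Of the members' log2 ratios recomputed, 95 of TR1 against Control kept their call or lack of call, 2 gained one (Jund under TMM scaling, at 1.01, and Egr2 at a false discovery rate of 0.05) and 1 lost it (Ier2 in edgeR's exact test). For TR9 against Control 94 kept it and 5 lost it (Egr2 under TPM scaling among them), and for TR9 against TR1 96 kept it and 3, all Egr1, lost it. With a pseudocount of 1 FPKM the median log2 ratio of the members was 1.39 in TR1, 1.65 in TR9 and 0.40 for TR9 against TR1, and Egr2 in TR9, at 0.83, was no longer called. A minimum of 10 counts, which removes Atf3, gave a median of 2.70 in TR9. In edgeR's exact test with an assumed variation of 0.2, 5 members were called higher in TR9, without Junb, Jund and Egr2, and 1 member, Fosb, was higher in TR9 than in TR1. TMM and median of ratios scaling also left 1 such member. The same edgeR test called 657 of all genes higher and 992 lower in TR1, 717 and 830 in TR9, and 188 and 94 between TR9 and TR1. By counts, Fos held 26.4%, 61.5% and 39.2% of the FOS genes in Control, TR1 and TR9, with Fosl2 the largest share in Control (59.1%) and Fosb in TR9 (41.6%). TMM moved the effective library total by -0.25 for TR1 and -0.11 for TR9 relative to Control (log2). Limits on Egr2 and Atf3 come from 12 counts or fewer in each library. No paired analysis was possible because each condition has 1 library, and no replicate could be left out.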

Other observations

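Among the related genes, chosen after their values were seen, Atf2, a partner of JUN, had 521 counts in the Control library, 483 in TR1 and 1230 in TR9, and was higher in TR9 than in TR1 by a log2 ratio of 1.47 (1.31 to 1.62). Against Control its log2 ratio was -0.12 (-0.31 to 0.05) in TR1, an interval that includes 0, and 1.35 (1.18 to 1.48) in TR9.

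Of the 46 other immediate early genes, 3 were called lower and 2 higher in TR9 than in TR1, beside 2.31% and 4.34% of all genes, and the median log2 ratio of the list was 0.08. Nfkbia, the gene of an NF-kB inhibitor, had 92 counts in Control against 1057 in TR1 and 304 in TR9, with a log2 ratio of -1.68 (-1.87 to -1.49) for TR9 against TR1. Sgk1, a kinase gene induced by glucocorticoids, had 48.6, 388 and 156 counts and a ratio of -1.19, and Per1, a clock gene, had 211, 937 and 389 counts and a ratio of -1.15. Klf2 and Trib1 were higher in TR9, with log2 ratios of 1.26 and 1.30.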
